A study of Mus musculus with 3 samples.

Results

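TRAJ4 is 1 of the joining (J) segments of the mouse T cell receptor (TCR) α locus. Its cells were taken as the thymocytes whose only productive α chain in the deposited contig table used TRAJ4, among the barcodes of the expression matrix. There were 292 such cells among 6982 cells with exactly 1 productive α chain (4.18%, exact Clopper-Pearson 95% interval 3.72 to 4.68). They carried 126 different complementarity-determining region 3 (CDR3) amino acid sequences and 233 rearrangements, a rearrangement being 1 combination of V gene, J gene and CDR3 nucleotides. TRAJ4 was chosen because its share differed between populations in these same data, so those shares are a description and were not tested.

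The thymocytes came from 1 pool of 8 female mice, 7 to 12 weeks old, labelled C56Bl/6, with the TCliβ transgene, 1 intact TCRα allele (TCRα+/-) and a Foxp3-GFP reporter. All groups thus carried the same β chain transgene, and the β chains of the cells were not examined here. Every cell was also sorted for surface Vα2, which TRAV14 genes encode. Each sorted population received its own hashtag antibody: DP (CD4+CD8+), CD4 SP (CD4+ without CD25, Foxp3 or CD73), the progenitors of regulatory T cells (Treg) called CD25+ TRP and Foxp3lo TRP, and Treg sorted as CD73- or CD73+. DP cells came from unenriched thymus and the others from thymus depleted of CD8+ cells. With 1 pool and 1 sorted sample per population there was no replicate, and the labels do not say which mouse a cell came from. All intervals are exact 95% intervals. They reflect counting error alone, and cells that descend from 1 rearranged cell are not independent draws. The sort markers were not checked by expression, because the matrix rows used here carry no gene names.

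An α chain is assembled in DP thymocytes when a V segment is cut and joined to a J segment, with bases lost from both ends and others added between them. The junction encodes the CDR3, the loop that lies over the peptide. If the first chain fails, the locus can rearrange again, each time joining a V segment farther upstream to a J segment farther downstream, and TRAJ4 is among the last segments before the constant gene. Treg progenitors with CD25 or low Foxp3 precede Foxp3-expressing Treg in the thymus, and CD73 is an ecto-enzyme that marks more mature or recirculating thymic Treg.

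The germline segment is shown because nearly every TRAJ4 CDR3 ends in it. TRAJ4 (ENSMUSG00000076924.1, a J gene) lies on the plus strand at chr14:54216291-54216353 in GRCm38, 63 bases long and 4.17 kb before the constant gene TRAC. The capitals mark the 32 bases that fall in the CDR3. The V end is identical in all 8 TRAV14 copies found with TRAJ4 and is given from TRAV14N-1, whose gene spans chr14:53166626-53167178, 1049 kb upstream of TRAJ4. Its codons read cysteine, alanine, alanine and serine, followed by 1 further base.
TRAJ4 germline: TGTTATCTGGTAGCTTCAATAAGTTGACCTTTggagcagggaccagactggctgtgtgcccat
TRAV14N-1 end: tgtgcagcaagtg

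The 6 rearrangements found in at least 4 cells are printed next, to show how the common junctions were built. They are followed by the 6 found in 2 or 3 cells of which at least 1 was a CD73- Treg cell. The other CD73- Treg rearrangements were in 1 cell each and are not printed. The names give the CDR3, of which the third is cut to its first 8 residues. Each sequence runs from the cysteine codon to the phenylalanine codon, and capitals mark bases that match neither the V end nor the TRAJ4 germline.
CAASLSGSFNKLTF on TRAV14N-1, 9 cells: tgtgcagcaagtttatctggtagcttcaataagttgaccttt
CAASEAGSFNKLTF on TRAV14N-1, 6 cells: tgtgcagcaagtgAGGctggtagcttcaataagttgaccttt
CAASVVSG(...) on TRAV14D-3-DV8, 6 cells: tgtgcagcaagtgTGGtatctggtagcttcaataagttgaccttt
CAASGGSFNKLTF on TRAV14D-3-DV8, 5 cells: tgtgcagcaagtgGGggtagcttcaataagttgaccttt
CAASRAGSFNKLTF on TRAV14N-3, 5 cells: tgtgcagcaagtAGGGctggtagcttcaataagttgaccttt
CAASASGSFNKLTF on TRAV14N-1, 4 cells: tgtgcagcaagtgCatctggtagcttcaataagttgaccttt
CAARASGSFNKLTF on TRAV14N-1, 3 cells: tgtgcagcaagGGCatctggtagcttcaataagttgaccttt
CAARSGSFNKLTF on TRAV14N-1, 2 cells: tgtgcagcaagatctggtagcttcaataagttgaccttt
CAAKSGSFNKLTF on TRAV14N-1, 2 cells: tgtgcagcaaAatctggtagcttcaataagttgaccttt
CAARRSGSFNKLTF on TRAV14N-1, 2 cells: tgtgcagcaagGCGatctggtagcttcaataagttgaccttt
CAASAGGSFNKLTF on TRAV14N-1, 2 cells: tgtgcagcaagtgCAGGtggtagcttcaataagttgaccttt
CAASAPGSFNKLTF on TRAV14N-3, 2 cells: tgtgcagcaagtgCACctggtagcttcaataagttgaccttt
The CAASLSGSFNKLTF and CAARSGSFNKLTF junctions held no added base at all, so germline V and J bases alone spell these CDR3. The 4 with arginine or lysine in place of the first serine had lost 2 or 3 bases of the V end, so that the serine codon agt is incomplete.

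TRAJ4 made up a similar share of DP, CD4 SP and CD25+ TRP cells and a larger one of CD73- Treg. Its share was 4.03% of DP cells (51 of 1266, 3.01 to 5.26), 3.62% of CD4 SP (67 of 1849, 2.82 to 4.58) and 3.53% of CD25+ TRP (63 of 1783, 2.73 to 4.5). It was 5.6% in Foxp3lo TRP, with 45 of 804 cells (4.11 to 7.42). CD73- Treg had the highest share, 9.87%, with 22 of 223 cells (6.29 to 14.6). In CD73+ Treg it was 4.16%, with 44 of 1057 cells (3.04 to 5.55). The CD73- Treg interval lay wholly above those of DP, CD4 SP, CD25+ TRP and CD73+ Treg, and overlapped that of Foxp3lo TRP. This was not particular to TRAJ4 for DP and CD4 SP. The interval of TRAJ7 in CD73- Treg (3.47 to 10.3) also lay above its intervals in DP (1.28 to 2.9) and CD4 SP (0.921 to 2.05). How many segments did so against DP or CD4 SP was not counted. In CD73- Treg, TRAJ4 and TRAJ23 were the most used of 36 segments, with 22 cells each. Its rank was 3 of 43 segments in DP, 10 of 42 in CD4 SP and 11 of 43 in CD25+ TRP. In Foxp3lo TRP it was 5 of 40 and in CD73+ Treg 7 of 42. The median number of unique molecular identifiers (UMIs) per cell was lower in TRAJ4 cells than in cells of other segments in every population, with 2216.5 against 2817 in CD73- Treg, and the part of depth in the shares was not tested.

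**Figure D1:**
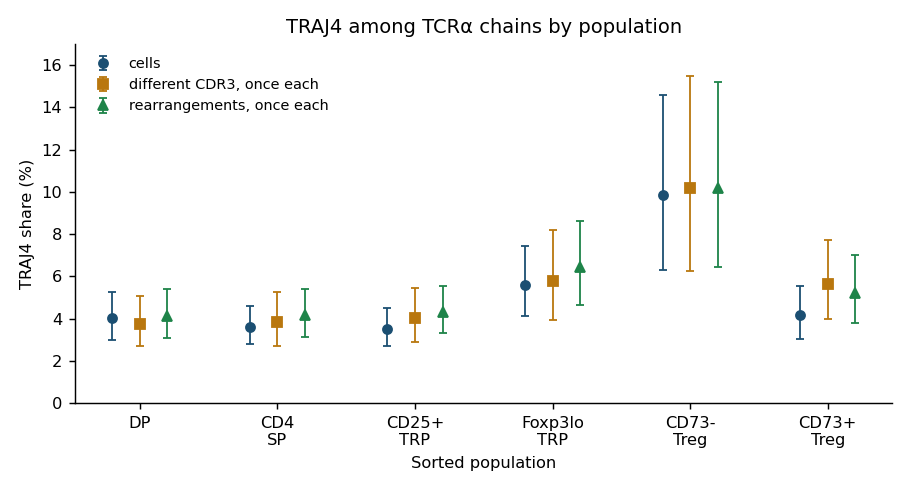
TRAJ4 share in percent (vertical axis) in each sorted population (horizontal axis), counted over cells, over different CDR3 and over rearrangements. Bars are exact 95% intervals from counts. CD73- Treg stands at 9.87 to 10.2% under all 3 counts, and the other populations between 3.53 and 6.45%.

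The larger share was spread over many rearrangements. The 22 TRAJ4 cells of CD73- Treg held 19 different CDR3 and 21 rearrangements, and 1 rearrangement was seen in 2 of them. The cells of other segments there were spread much alike, with 167 CDR3 and 184 rearrangements in 201 cells. Counted once each, TRAJ4 took 10.2% of the rearrangements of CD73- Treg (21 of 205, 6.45 to 15.2). The same count gave 4.14% in DP, 4.16% in CD4 SP and 4.33% in CD25+ TRP. It gave 6.45% in Foxp3lo TRP (4.67 to 8.64) and 5.23% in CD73+ Treg (3.78 to 7.03). The interval of CD73- Treg then overlapped those of Foxp3lo TRP and CD73+ Treg.

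The folds between stages were set beside those of every TRAJ segment with at least 20 cells over both populations. The ratio of shares was 2.79 for CD73- Treg against CD25+ TRP, the highest of 28 segments, whose median ratio was 0.967. TRAJ4 was the only segment at least 2-fold higher there and the only one with intervals apart, each 3.57% of the 28, while 17.9% were at least 2-fold lower. For CD73+ Treg against CD73- Treg the ratio was 0.422, the lowest of 18 segments. It was the only segment at least 2-fold lower (5.56%), 16.7% were at least 2-fold higher, and intervals were apart for 2 of 18 (11.1%). Against Foxp3lo TRP the CD73- Treg ratio was 1.76, rank 4 of 19 segments, of which 15.8% were at least 2-fold higher, 10.5% at least 2-fold lower and 0% had intervals apart. These 3 ratios share the 223 CD73- Treg cells and are not independent.

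Among the progenitors, TRAJ4 moved less. The ratio of Foxp3lo TRP to CD4 SP was 1.54, the third highest of 31 segments, of which 0% were at least 2-fold higher, 9.68% at least 2-fold lower and 9.68% had intervals apart. The ratio of CD25+ TRP to Foxp3lo TRP was 0.631, rank 30 of 31, with 6.45% of segments at least 2-fold higher, 3.23% at least 2-fold lower and 3.23% with intervals apart. For CD25+ TRP against CD4 SP the ratio was 0.975, where 5.88% of 34 segments were at least 2-fold higher, 2.94% at least 2-fold lower and 11.8% had intervals apart. For CD4 SP against DP it was 0.9, where 10.5% of 38 segments were at least 2-fold higher, 26.3% at least 2-fold lower and 44.7% had intervals apart. TRAJ4 met none of these calls in those 4 comparisons.

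**Figure D2:**
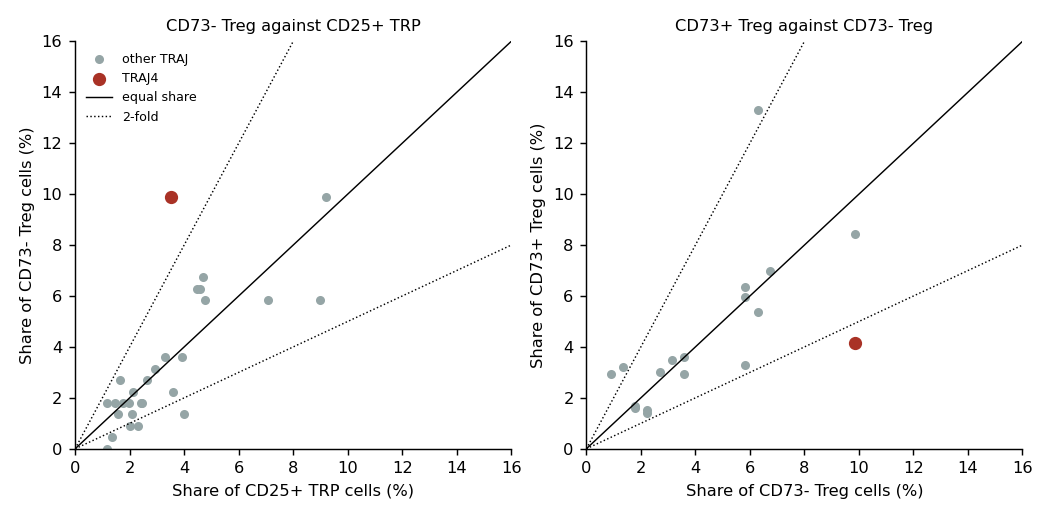
Share of cells in percent for every TRAJ segment with at least 20 cells over both populations; the left panel plots CD73- Treg against CD25+ TRP and the right panel CD73+ Treg against CD73- Treg. The solid line is an equal share and the dotted lines a 2-fold ratio. TRAJ4 lies at 9.87% against 3.53% on the left and at 4.16% against 9.87% on the right.

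The segments next to TRAJ4 in the locus had other patterns. TRAJ3, the next segment downstream, was used by no cell of any population, which in CD4 SP allows a share of 0.162% (upper end of the exact interval 0.199%). TRAJ2 was used by 2.37% of DP, 0.973% of CD4 SP, 0.561% of CD25+ TRP and 0.498% of Foxp3lo TRP. It was seen in 0 of 223 CD73- Treg, which allows 1.35% (upper end of the exact interval 1.64%), and in 0.284% of CD73+ Treg. TRAJ5 lay between 0.757% in CD73+ Treg and 2.87% in CD4 SP, and TRAJ6 between 1.37 and 2.27%. TRAJ7 was used by 6.28% of CD73- Treg and 13.3% of CD73+ Treg, against 1.41% of CD4 SP, so it was highest in CD73+ Treg.

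Of 35 segments with at least 50 cells, TRAJ18 had shares most like those of TRAJ4 over the 6 populations (Pearson r 0.88), followed by TRAJ15 (0.55) and TRAJ30 (0.51). Without CD73- Treg these were 0.46, -0.52 and 0.50 over the other 5 populations. The likeness of TRAJ18 and TRAJ15 thus rested largely on CD73- Treg, where TRAJ18 had 6 cells and TRAJ15 had 14. All segments share the same 6 sorted samples, and these values are a description.

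Within DP cells and CD25+ TRP, the TRAJ4 share differed between expression clusters. Clusters are the authors' numbered expression clusters, and those with at least 20 cells in a population were used: 39 pairs of cluster and population that hold 282 TRAJ4 cells. In DP, TRAJ4 was used by 2 of 349 cells of cluster 4 (0.573%, 0.0695 to 2.05), 30 of 580 of cluster 6 (5.17%, 3.52 to 7.3) and 19 of 214 of cluster 8 (8.88%, 5.43 to 13.5). The other segments from TRAJ2 to TRAJ11 followed the same order, at 4.58% in cluster 4, 11.7% in cluster 6 and 25.2% in cluster 8. TRAJ40 to TRAJ58, at the far upstream end, ran the other way, at 53.9%, 21.7% and 4.67%. The order of the TRAJ4 shares was thus also that of the other downstream segments. Clusters 2 and 11 had TRAJ4 in 0 of 34 and 0 of 45 DP cells, which allows 8.82% and 6.67% (upper ends of the exact intervals 10.3% and 7.87%). Median UMIs per DP cell with an α chain were 1585 in cluster 4, 1616.5 in cluster 6 and 1146 in cluster 8, and the part of depth was not tested.

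In CD25+ TRP, cluster 0 held TRAJ4 in 14 of 125 cells (11.2%, 6.26 to 18.1) and cluster 1 in 2 of 285 (0.702%, 0.0851 to 2.51). The 14 cells had 14 different CDR3, 12.8% of the different CDR3 of that cluster (7.2 to 20.6), and 6 of them used TRAV14N-1. Clusters 2, 5 and 7 lay between, at 3.37%, 4.19% and 3.08%. Clusters 0 and 1 are named as the highest and lowest of CD25+ TRP. Other segments were not counted by cluster there, so this difference is not shown to be particular to TRAJ4. Cluster 0 also held 30 of the 45 TRAJ4 cells of Foxp3lo TRP, at 6.82% of its cells there (4.65 to 9.59), 9.26% in CD73- Treg (5 of 54), 4.67% in CD73+ Treg (5 of 107) and 3.03% in CD4 SP (4 of 132). The highest share in Foxp3lo TRP was in cluster 3, at 10.5% (4 of 38, 2.94 to 24.8). Without cluster 0, an alternative chosen after seeing the data, the share was 2.96% in CD25+ TRP, 4.12% in Foxp3lo TRP and 10.1% in CD73- Treg.

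In CD73- Treg the share was alike in the clusters large enough to use, at 9.26% in cluster 0, 9.3% in cluster 3 (8 of 86, 4.1 to 17.5) and 10.3% in cluster 7 (3 of 29, 2.19 to 27.4). In CD73+ Treg it was 4.89% in cluster 3 (18 of 368, 2.92 to 7.62), the largest cluster of both Treg groups, and 2.99% in cluster 9 (7 of 234, 1.21 to 6.07). The intervals of cluster 3 overlapped between CD73+ and CD73- Treg.

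**Figure D3:**
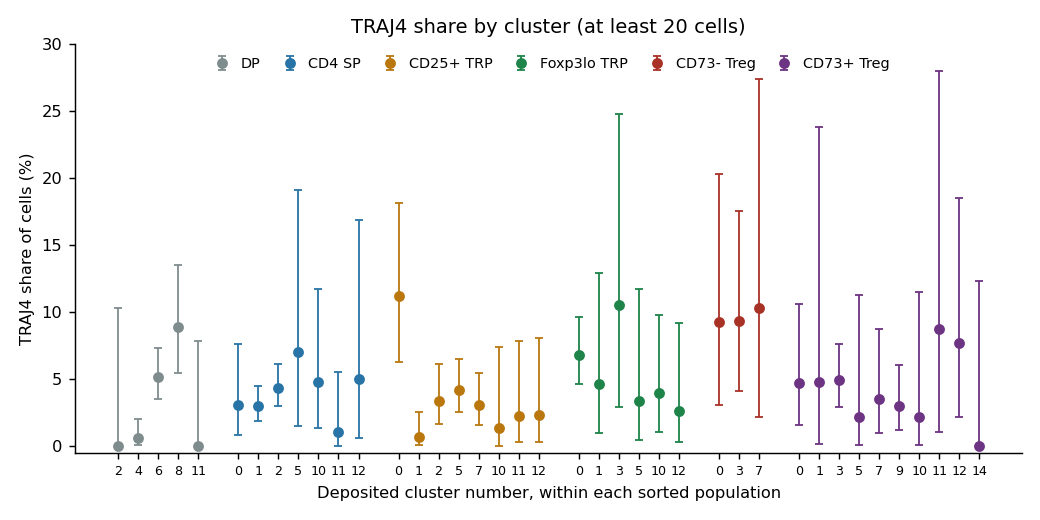
TRAJ4 share of cells in percent (vertical axis) in each deposited cluster with at least 20 cells, grouped by sorted population (horizontal axis). Bars are exact 95% intervals. The 3 large DP clusters span 0.573% in cluster 4 to 8.88% in cluster 8, and CD25+ TRP 0.702% in cluster 1 to 11.2% in cluster 0.

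The CDR3 were many, and most were seen in few cells. Of the 126 sequences, 81 were seen in 1 cell, 31 in 2 to 4 cells and 14 in at least 5 cells, and these 14 held 124 cells (42.5%). The ending GSFNKLTF, encoded by the germline segment, was present in 289 of 292 cells. The 14 frequent CDR3 differed in the 2 to 4 residues between the opening CAA and this ending.

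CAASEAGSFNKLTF was the most frequent. Its 21 cells were 10 CD4 SP cells, 3 CD25+ TRP cells, 5 Foxp3lo TRP cells and 3 CD73+ Treg cells, with none in DP or CD73- Treg. It was the leading TRAJ4 CDR3 of CD4 SP, at 14.9% of the TRAJ4 cells there (7.4 to 25.7). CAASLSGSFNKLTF followed with 19 cells. These were 7 CD4 SP cells, 6 CD25+ TRP cells, 5 Foxp3lo TRP cells and 1 CD73- Treg cell, with none in DP or CD73+ Treg. Neither was met in the 51 DP cells, where a count of 0 allows a share of up to 5.88% (upper end of the exact interval 6.98%).

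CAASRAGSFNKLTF, with 10 cells, led in CD73+ Treg (4 cells) and was also in DP (1), CD4 SP (2) and CD25+ TRP (3). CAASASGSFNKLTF had 9 cells, 3 of them in DP and 2 each in CD4 SP, CD25+ TRP and Foxp3lo TRP. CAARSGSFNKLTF had 8 cells and was the only TRAJ4 CDR3 met in 5 populations, with 2 DP cells, 1 CD4 SP cell, 1 Foxp3lo TRP cell, 2 CD73- Treg cells and 2 CD73+ Treg cells.

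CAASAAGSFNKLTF had 8 cells, of which 4 were CD4 SP, 2 Foxp3lo TRP and 2 CD73+ Treg cells. It was not met in CD73- Treg, and neither were 8 others of the 14. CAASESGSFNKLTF had 7 cells, of which 4 were CD4 SP, 1 CD25+ TRP and 2 Foxp3lo TRP cells. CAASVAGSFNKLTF had 7, of which 1 was a DP, 4 were CD4 SP, 1 a CD25+ TRP and 1 a Foxp3lo TRP cell. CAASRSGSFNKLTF had 7 cells, of which 3 were CD4 SP, 3 CD25+ TRP and 1 a Foxp3lo TRP cell. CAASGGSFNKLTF had 6, split into 1 DP, 2 CD4 SP, 2 CD25+ TRP and 1 CD73+ Treg cell, and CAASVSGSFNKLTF had 6, split into 2 DP, 1 CD4 SP, 2 CD25+ TRP and 1 CD73+ Treg cell.

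The remaining 3 were seen neither in DP nor in CD4 SP. The CDR3 of 15 residues that opens with CAASVVSG had 2 CD25+ TRP cells, 3 Foxp3lo TRP cells and 1 CD73- Treg cell. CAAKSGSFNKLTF had 2 CD25+ TRP, 2 CD73- Treg and 1 CD73+ Treg cell. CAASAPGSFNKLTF had 1 CD25+ TRP cell, 1 Foxp3lo TRP cell, 2 CD73- Treg cells and 1 CD73+ Treg cell. With 5 or 6 cells each, these counts are too small to compare the populations.

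Frequent CDR3 were mostly built several times over. The mean number of rearrangements per CDR3 was 1.85 for TRAJ4 and 1.47 for the other segments. Among CDR3 in 5 to 21 cells, the range TRAJ4 covers, it was 5.36 for TRAJ4 (14 CDR3) and 4.23 for the others (177 CDR3). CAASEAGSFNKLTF came from 11 rearrangements with only 3 nucleotide sequences on 7 TRAV14 copies. Its printed sequence was assigned to TRAV14N-1 in 6 cells, TRAV14N-2 in 3, TRAV14-2, TRAV14D-3-DV8 and TRAV14N-3 in 2 each and TRAV14-3 in 1. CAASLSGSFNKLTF showed the opposite makeup, with 8 nucleotide sequences in 10 rearrangements, and 17 of its 19 cells used TRAV14N-1.

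The CDR3 that opens with CAASVVSG was the only one of the 14 built once: all 6 cells carried 1 rearrangement on TRAV14D-3-DV8, with the same 3 added bases. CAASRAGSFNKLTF was on TRAV14N-3 in 9 of 10 cells, and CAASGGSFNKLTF on TRAV14D-3-DV8 in 5 of 6. Of the 186 CDR3 nucleotide sequences, 31 were found on at least 2 TRAV copies, up to 6, and these held 118 cells. The number of rearrangements therefore leans on how the authors' software told near-identical V copies apart.

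Repeats of 1 rearrangement were few among TRAJ4 cells and differed in number between stages, as they did in other segments. All 51 DP cells had different rearrangements. In CD4 SP, 7 rearrangements were seen in at least 2 cells (20 of 67 cells), in CD25+ TRP 4 (8 of 63), in Foxp3lo TRP 3 (7 of 45), in CD73- Treg 1 (2 of 22) and in CD73+ Treg 3 (6 of 44). For other segments such cells were 61 of 1215 in DP, 730 of 1782 in CD4 SP and 575 of 1720 in CD25+ TRP. Foxp3lo TRP had 227 of 759, CD73- Treg 29 of 201 and CD73+ Treg 362 of 1013. As a share of cells, both were lowest in DP and highest in CD4 SP. Over all populations, 30 rearrangements were in at least 2 cells and 25 of these were in at least 2 populations. Because the 8 mice were pooled, 1 expanded clone and separate events in different mice cannot be told apart. The most cells on 1 rearrangement within a population was 5, in CD4 SP (67 cells). All other segments together reached 48 there (1782 cells) and 31 in CD73+ Treg (1013 cells). These maxima come from far more cells and are not on a like base.

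TRAJ4 was joined to a different mix of TRAV14 copies than the other segments. The TRAV14 cluster is triplicated in the mouse, and copies named with D or N lie farther upstream than TRAV14-1, TRAV14-2 and TRAV14-3. These 3 nearest copies made up 12% of TRAJ4 chains (35 of 292, 8.49 to 16.3) and 36.7% of other TRAJ chains (35.5 to 37.8). TRAV14N-1 made up 35.3% of TRAJ4 chains (103 of 292, 29.8 to 41.1) and 13.3% of the others (12.5 to 14.2). TRAV14D-3-DV8 was used alike, by 25.3% of TRAJ4 chains and 25.5% of the others. Each rearrangement counted once, TRAV14N-1 stood at 31.3% of TRAJ4 against 14.7% of the others.

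TRAV14N-1 and TRAV14D-1 are identical over the last 270 bases of the V gene in GENCODE M21, and TRAV14D-1 was assigned to 0 of the 6982 cells. TRAV14N-1 thus stands here for either gene. TRAV14N-2 and TRAV14D-2 are likewise identical over that stretch, whereas the 3 nearest copies differ from every D and N copy by at least 5 bases.

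Low use of the nearest copies was shared by the other downstream J segments. It was 7.28% for the other segments from TRAJ2 to TRAJ11, 21.7% for TRAJ12 to TRAJ24, 47% for TRAJ26 to TRAJ39 and 71.1% for TRAJ40 to TRAJ58. TRAJ4 ranked 28 of 36 segments. The TRAV14N-1 share did not follow that order, at 14.4%, 12.7%, 17.3% and 8.53% in the same 4 groups. TRAJ4 had rank 3 of 36 segments, after TRAJ6 (42.2%) and TRAJ26 (36.7%), and the median was 9.48%. Its neighbours differed widely: TRAJ7 was on TRAV14D copies in 88.2% of cells, and TRAJ5 had TRAV14N-1 in 8.46%.

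By population, TRAV14N-1 made up 17.6% of TRAJ4 chains in DP (9 of 51, 8.4 to 30.9), 41.8% in CD4 SP (28 of 67, 29.8 to 54.5) and 34.9% in CD25+ TRP (22 of 63, 23.3 to 48). It made up 46.7% in Foxp3lo TRP (21 of 45, 31.7 to 62.1), 50% in CD73- Treg (11 of 22, 28.2 to 71.8) and 27.3% in CD73+ Treg (12 of 44, 15 to 42.8). In the other segments it stayed between 11.9 and 17.9%. The DP interval of TRAJ4 overlapped that of the other segments in DP (10.2 to 13.9), as did that in CD73+ Treg (11.8 to 16.1 in the others), and the intervals in the 4 populations between did not overlap. TRAV14-1, TRAV14-2 and TRAV14-3 together were less used by TRAJ4 than by other TRAJ chains in every population. The shares were 11.8% against 42.5% in DP, 13.4% against 33.3% in CD4 SP and 12.7% against 35.6% in CD25+ TRP. Foxp3lo TRP had 13.3% against 38.6% and CD73+ Treg 13.6% against 36.4%. In CD73- Treg none of the 22 TRAJ4 chains used them, which allows up to 13.6%, against 33.3% of other TRAJ chains (67 of 201). The exact interval of this 0 reached 15.4% and held the TRAJ4 shares of the other populations.

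**Figure D4:**
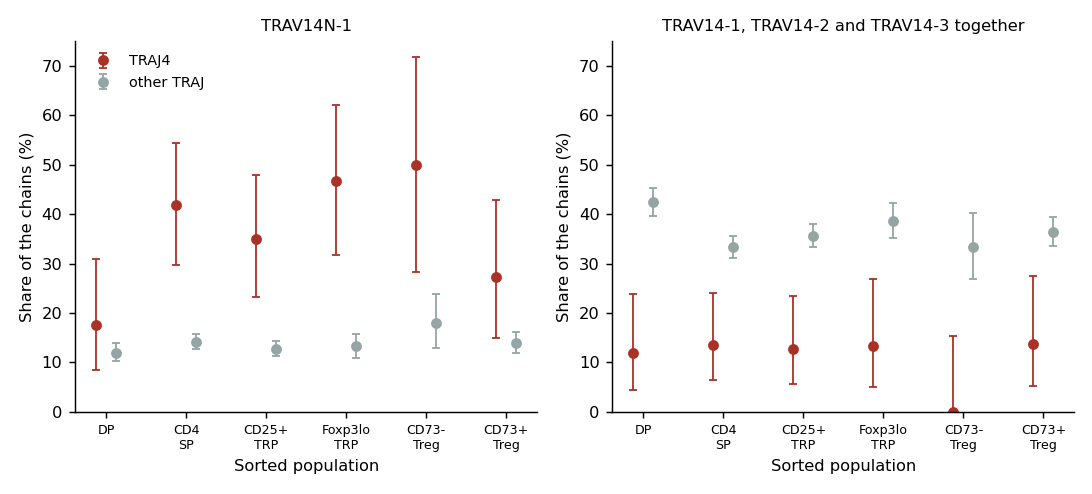
Share of chains in percent (vertical axes) that used TRAV14N-1 (left) or TRAV14-1, TRAV14-2 and TRAV14-3 together (right), for TRAJ4 and for all other TRAJ segments, in each sorted population (horizontal axes). Bars are exact 95% intervals. TRAV14N-1 reaches 50% of TRAJ4 chains in CD73- Treg against 17.9% of other chains, and the nearest copies 0% against 33.3%. In the other populations the nearest copies make up 11.8 to 13.6% of TRAJ4 chains and 33.3 to 42.5% of other chains.

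Only 7 of the 292 cells had a V gene outside the TRAV14 family, 5 of them DP cells (9.8% of TRAJ4 in DP, 3.26 to 21.4), against 8.64% of other TRAJ chains in DP. The TRAV14 copies with at least 10 TRAJ4 cells also included TRAV14N-3 (47), TRAV14-2 (19), TRAV14N-2 (16), TRAV14-1 (14) and TRAV14D-2 (10). CDR3 of 15 residues or more made up 35.7% of the TRAJ4 cells with TRAV14-1 (5 of 14) and 31.1% of those with TRAV14D-3-DV8 (23 of 74). They made up 10% with TRAV14D-2 (1 of 10), 3.88% with TRAV14N-1 (4 of 103) and 2.13% with TRAV14N-3 (1 of 47), and none of the cells with TRAV14-2 or TRAV14N-2 had one. Of the 10 cells assigned to TRAV14D-2, 7 were DP cells, as were 5 of the 16 assigned to TRAV14N-2. These genes are identical over their last 270 bases, so the counts may not separate them.

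Most TRAJ4 cells had a CDR3 of 14 residues. The median was 14 residues (range 12 to 17) and 67.5% of cells had exactly 14 (197 of 292), against 33.2% of cells with other segments, whose range was 7 to 22. The other segments are pooled here, over 6690 cells, which widens their range. Lengths were not compared segment by segment, so TRAJ4 is not shown to be more uniform than other single segments. The share at 14 residues was 56.9% in DP, 80.6% in CD4 SP and 71.4% in CD25+ TRP. It was 75.6% among Foxp3lo TRP cells, 50% among CD73- Treg cells and 54.5% among CD73+ Treg cells. Shorter CDR3 made up 27.5% of TRAJ4 cells in DP, 10.4% in CD4 SP and 15.9% in CD25+ TRP. They made up 13.3% of the Foxp3lo TRP, 36.4% of the CD73- Treg (8 of 22) and 31.8% of the CD73+ Treg (14 of 44) TRAJ4 cells. Over different CDR3 they were 26.8% in DP, 16.7% in CD4 SP, 31.6% in CD73- Treg and 36.1% in CD73+ Treg, so DP and CD4 SP were closer. Counted once each, 53.2% of the different TRAJ4 CDR3 had 14 residues, so the frequent sequences were more often of this length than the rare ones.

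The junctions were read base by base. In the 226 TRAV14 rearrangements, TRAJ4 had lost a median of 5 bases, against 3 in other segments, and had gained a median of 3, as the others did. Loss of 6 bases was the most frequent (67 rearrangements, 29.6%), then of 4 (49, 21.7%). A loss of 4 keeps the germline serine codon tct before ggt, as in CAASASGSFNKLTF, and a loss of 6 keeps ct before ggt, as in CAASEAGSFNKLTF and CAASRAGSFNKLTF. No base was added in 15 rearrangements (6.64%), against 8.13% of those of other segments. By population, such TRAJ4 junctions were 13% of the rearrangements in DP (6), 7.55% in CD4 SP (4) and 3.39% in CD25+ TRP (2). Foxp3lo TRP had 4.88% (2), CD73- Treg 9.52% (2) and CD73+ Treg 10% (4). The other segments lay between 7.65% in Foxp3lo TRP and 12.1% in CD73+ Treg, with 11.8% in DP and 10% in CD73- Treg.

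Residue 4 of the CDR3, where the V end gives serine, differed between stages. These residue classes were chosen after their values were seen. Serine, the germline residue, stood there in 62.7% of DP, 91% of CD4 SP, 65.1% of CD25+ TRP, 80% of Foxp3lo TRP, 40.9% of CD73- Treg and 61.4% of CD73+ Treg TRAJ4 cells. Lysine or arginine stood there in 17.6% of DP (9 of 51), 2.99% of CD4 SP (2 of 67, 0.364 to 10.4) and 19% of CD25+ TRP (12 of 63). It stood there in 13.3% of Foxp3lo TRP (6 of 45), 50% of CD73- Treg (11 of 22, 28.2 to 71.8) and 27.3% of CD73+ Treg (12 of 44, 15 to 42.8). Over different CDR3, it was 47.4% in CD73- Treg (9 of 19, 24.4 to 71.1) and 5.56% in CD4 SP (2 of 36, 0.68 to 18.7). Of the arginine codons, 27 cells had agg and 14 had aga, both of which keep the first bases of the V-encoded agt.

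Other TRAJ chains of the TRAV14 family were also lowest in CD4 SP and highest in CD73- Treg, over a smaller range. Lysine or arginine stood at this position in 14.7% of DP, 11.4% of CD4 SP and 16% of CD25+ TRP cells. Foxp3lo TRP cells had it in 20.1%, CD73- Treg cells in 23.4% (17.6 to 29.9) and CD73+ Treg cells in 21%. TRAJ4 was below them in CD4 SP, where its interval (0.364 to 10.4) overlapped that of the others (9.97 to 13), and above them in CD73- Treg, where the intervals also overlapped. The TRAJ4 shares took cells of any V gene, of which 5 of 51 in DP were outside the TRAV14 family.

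**Figure D5:**
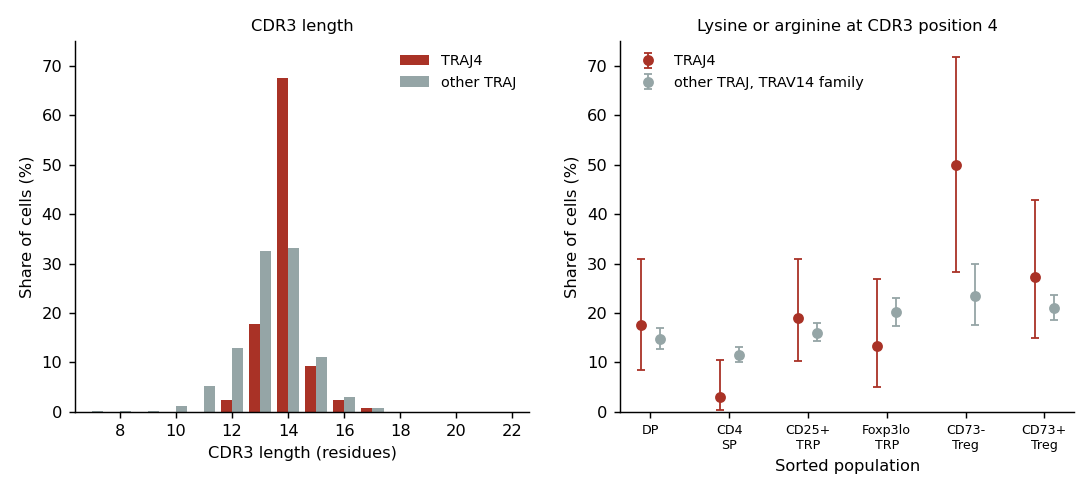
Left, CDR3 length in residues (horizontal axis) against the share of cells in percent for TRAJ4 and for other TRAJ segments; 67.5% of TRAJ4 cells and 33.2% of the others have 14 residues. Right, share of cells in percent with lysine or arginine at CDR3 position 4 by sorted population, with exact 95% intervals. Shown are TRAJ4 cells with any V gene and other TRAJ chains of the TRAV14 family. TRAJ4 runs from 2.99% in CD4 SP to 50% in CD73- Treg.

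Acidic residues (aspartate or glutamate) had a different order, at 7.84% of TRAJ4 cells in DP, 28.4% in CD4 SP and 14.3% in CD25+ TRP. They were in 24.4% of the Foxp3lo TRP, 9.09% of the CD73- Treg and 20.5% of the CD73+ Treg TRAJ4 cells. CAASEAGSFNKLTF and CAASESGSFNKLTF made up 14 of the 19 such cells in CD4 SP. Counted over different CDR3, CD4 SP stood at 19.4% (7 of 36, 8.19 to 36) and DP at 9.76% (4 of 41, 2.72 to 23.1), with intervals that overlap.

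TRAJ4 CDR3 recurred between populations. Of the 19 in CD73- Treg, 8 were also in Foxp3lo TRP (42.1% of the 19, 26.7% of the 30 in Foxp3lo TRP), 7 in CD25+ TRP (36.8% and 17.1%), 3 in CD4 SP (15.8% and 8.33%) and 4 in DP (21.1% and 9.76%). Of the 36 in CD73+ Treg, 5 were also in CD73- Treg (13.9% and 26.3%), 7 in Foxp3lo TRP (19.4% and 23.3%), 10 in CD25+ TRP (27.8% and 24.4%), 11 in CD4 SP (30.6% of either list) and 6 in DP (16.7% and 14.6%). By rearrangement, CD73- Treg shared 5 of 21 with Foxp3lo TRP (23.8% and 12.2%), 3 with CD25+ TRP (14.3% and 5.08%), 1 with CD4 SP (4.76% and 1.85%) and 0 with DP. Lists of unequal size and depth limit what these counts can show.

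In each of the 6 populations, the share of CDR3 also met in another population was higher for TRAJ4 than for other segments, a difference that was not tested. The share was 48.8% of the TRAJ4 CDR3 against 27.9% of the others in DP, 69.4% against 43.7% in CD4 SP and 58.5% against 47.1% in CD25+ TRP. It was 73.3% against 52.8% in Foxp3lo TRP, 63.2% against 56.9% in CD73- Treg and 44.4% against 39.3% in CD73+ Treg. In DP, 20 of 41 TRAJ4 CDR3 recurred in another population even though no DP rearrangement was repeated within DP.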

How the data were processed

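TCRα-enriched, hashtag and gene expression libraries came from the same cells, made with 10x Genomics 5' chemistry per the labels' protocols. Per the submitters' processing notes, the builds were mm10 and GRCm38 and the tools included Seurat 3.1.1 and Cell Ranger 3.1.0; the sources used here do not give cell filters, doublet handling or hashtag calling. The deposited expression matrix holds UMI counts for 12208 cells, and the deposited contig table read and UMI counts for 12771 barcodes. The authors' metadata carry no barcodes; their order was taken as that of the matrix columns, and clonotypes then matched in 6982 of 6982 cells. The deposited α table gave the same V gene, J gene and CDR3 for 292 of 292 TRAJ4 cells. The hashtag class labelled Treg was taken to be CD73- Treg. Of 7312 cells with a productive α chain, 330 with at least 2 were left out.

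TRAJ4 contigs had 2 to 55 UMIs. Median contig UMIs in TRAJ4 and other cells were 13 and 14 in DP, 16 and 19 in CD4 SP, 20 and 22 in CD25+ TRP, 13 and 14 in Foxp3lo TRP, 15 and 17 in CD73- Treg and 19 and 19 in CD73+ Treg. Median UMIs per cell were lower in TRAJ4 cells than in the others in each population, for example 2216.5 against 2817 in CD73- Treg and 1308 against 1583 in DP.

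Shares have exact Clopper-Pearson 95% intervals (scipy 1.17.1). A count of 0 allows the share of 3 cells. No test was run. Each CDR3 was matched from its start to the V end and then from its end to the J germline of GENCODE M21 (GRCm38); the rest counted as added bases, a minimum. Scripts were tested on simulated data. Named CDR3 were those in at least 5 cells and the leading one of each population; named TRAV copies had at least 10 cells; other printed sequences were chosen after their values were seen. TRAJ4 and these lists were chosen with earlier results of these data known. Alternatives were any productive chain, at least 3 UMIs, TRAV14 only, each CDR3 or rearrangement once, no top 5% of cells by UMIs, no small clusters, and no cluster 0 or 9.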

Additional observations from a re-analysis of the deposited data

Results flagged for a closer look

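TRAJ4 also appeared in chains that the shares above do not use. Among barcodes of the contig table outside the expression matrix with exactly 1 productive α chain, it was used by 120 of 2747 (4.37%, 3.63 to 5.2), against 4.18% of the matrix cells (3.72 to 4.68). Among matrix cells with at least 2 productive α chains, 29 of 330 (8.79%, 5.96 to 12.4) had TRAJ4 in at least 1 of them. Per chain this was 30 of 660 (4.55%, 3.09 to 6.43). The intervals of the share outside the matrix and of the share per chain both overlapped that of the matrix cells.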

How the results depend on the processing

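Of 80 values recomputed over 22 results, 77 stayed within the 95% interval of the reported value, or within 1.5-fold for the number of rearrangements per CDR3. With each CDR3 counted once, the share in CD73+ Treg was 5.63% in place of 4.16%, and the CDR3 of 14 residues were 53.2% in place of 67.5%. With rearrangements in place of CDR3, the leading sequence of CD25+ TRP held 3.17% of its TRAJ4 cells in place of 9.52%. CD73- Treg had the highest share of the 6 populations under all 9 alternatives (9.83 to 10.4%), 2 of which, without cluster 0 and without cluster 9, were added after seeing the data. TRAJ4 was chosen for its shares, and the alternatives reuse most of the same cells, so this rank is no separate support. At least 3 UMIs, and no cluster 9, both left CD73- Treg at 22 of 223. Foxp3lo TRP ranged from 4.12 to 6.45%, CD25+ TRP from 2.96 to 4.33%. No paired analysis was possible because each population was 1 sorted sample of 1 pool. The 223 chains of CD73- Treg limit the precision, and V copies that are identical at their ends limit the partner counts.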

Other observations

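Among contigs of matrix cells that were not productive, 1 of 323 used TRAJ4 (0.31%, 0.00784 to 1.71), against 4.18% of the productive single chains. The first share counts contigs and the second counts cells, over all populations. Other segments were not counted among the 323 contigs, so this difference is not shown to be particular to TRAJ4. Of 74 different TRAJ4 CDR3 in barcodes outside the matrix, 38 were also among the 126 of the matrix cells. Only 3 TRAJ4 cells had a CDR3 without the glycine of the common ending GSFNKLTF: 1 with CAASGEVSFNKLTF, in CD73- Treg, 1 with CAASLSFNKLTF and 1 with a CDR3 that opens with CAASPFGS.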
